A study of Mus musculus with 6 samples.

Results

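The unfolded protein and heat shock genes are a set of 37 genes for chaperones, folding enzymes and the stress factors that control them. A gene was measured where a probe set of the array carried its symbol alone, and it was represented by the probe set with the highest mean. By this rule 35 of the 37 genes were measured, among 18193 genes in all. Hsp90ab1 and Hsf1 were not analysed here. Of the 35 genes, 26 belong to the endoplasmic reticulum (ER) or to its stress response and are called ER genes here. They include genes of transcription factors, such as Xbp1, Atf4 and Ddit3. The other 9 are cytosolic or mitochondrial chaperones.

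The cells were regulatory T cells (Tregs) from the spleens of young female NOD mice, a strain that develops autoimmune diabetes, with 1 mouse per array and 3 arrays per group. Tregs came either from mice treated with anti-CD3 or from untreated mice, and all had the BDC2.5 T cell receptor transgene and a GFP reporter of Foxp3. The treated mice were RAG1o/o, and received 37.5 µg of the anti-CD3 antibody KT3 intravenously on 5 days in a row, the first at an age of 17 days. They were 29, 29 and 28 days old, given in the labels as 12, 12 and 11 days after treatment, while the untreated mice were RAG1+/o and 29, 28 and 28 days old. Treatment and RAG1 genotype differed together, so their contributions cannot be told apart. Cells were sorted as CD4+ and GFP+ and as negative for B220, CD8a and CD11b/c. Values are log2 of the deposited intensities, differences are treated minus untreated on that scale, and errors are SD with n = 3 per group.

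Secreted and membrane proteins fold in the ER, where the Hsp70-type chaperone BiP (Hspa5), the lectin chaperones calnexin and calreticulin and the protein disulfide isomerases act on them. When unfolded protein builds up, the sensors encoded by Ern1, Eif2ak3 and Atf6 start the unfolded protein response (UPR), which runs through the transcription factors XBP1, ATF4 and cleaved ATF6 and raises chaperone and degradation genes. In the lymphoid system this response is best known from plasma cells, whose antibody secretion depends on XBP1. The cytosolic heat shock response is a separate branch controlled by HSF1, and the mitochondrial chaperonin of Hspd1 and Hspe1 folds proteins imported into that organelle.

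Promoter letters are shown because elements of the ER and heat shock responses were found in some of the members. Windows of 250 bases before to 50 bases after the gene start were taken from RefSeq (GRCm38.p6), which matched 29 of the 37 genes with 34 windows. The ER stress response element, bound by ATF6 with NF-Y, was searched on both strands as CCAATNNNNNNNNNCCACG. It was found in 8 of the 23 ER genes with a window and in 0 of the 6 cytosolic or mitochondrial genes, against 0.119% of all 32851 windows. The matches, each read 5′ to 3′ in the direction of the element, follow with the fixed letters in capitals.
Hspa5: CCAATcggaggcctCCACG
Hsp90b1, farther from the start: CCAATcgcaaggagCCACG
Hsp90b1, nearer to the start: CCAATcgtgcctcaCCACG
Calr: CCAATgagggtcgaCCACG
Canx: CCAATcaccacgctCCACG
Pdia6: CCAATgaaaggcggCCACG
Dnajc3: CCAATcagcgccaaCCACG
Creld2: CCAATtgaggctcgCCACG
Syvn1: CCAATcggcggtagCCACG

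The element of Hspa5 lay at chr2:34772025-34772043, with its first base 65 bases before the gene start. Those of Hsp90b1 lay at chr10:86705638-86705656 and chr10:86705533-86705551. The matches of Calr (chr8:84847075-84847093), Canx (chr11:50325800-50325818) and Pdia6 (chr12:17266491-17266509) began 162, 145 and 98 bases from the start. Those of Dnajc3 (chr14:118937827-118937845), Creld2 (chr15:88819520-88819538) and Syvn1 (chr19:6046532-6046550) began 105, 126 and 44 bases from it. The matches of Calr and Creld2 and the one of Hsp90b1 nearer to the start ran opposite to the gene. A match is a description of the letters and no evidence of binding in these cells. The complete windows of Hspa5 (chr2:34771840-34772139, + strand) and of Pdia6 (chr12:17266339-17266638, + strand), the ER member with the lowest difference, show the element in its surroundings.
Hspa5: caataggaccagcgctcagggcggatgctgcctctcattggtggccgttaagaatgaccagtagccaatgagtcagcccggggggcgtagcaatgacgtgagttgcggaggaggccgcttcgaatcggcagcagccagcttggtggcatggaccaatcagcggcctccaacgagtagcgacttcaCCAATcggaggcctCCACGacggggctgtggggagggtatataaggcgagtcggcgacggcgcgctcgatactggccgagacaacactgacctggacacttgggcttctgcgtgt
Pdia6: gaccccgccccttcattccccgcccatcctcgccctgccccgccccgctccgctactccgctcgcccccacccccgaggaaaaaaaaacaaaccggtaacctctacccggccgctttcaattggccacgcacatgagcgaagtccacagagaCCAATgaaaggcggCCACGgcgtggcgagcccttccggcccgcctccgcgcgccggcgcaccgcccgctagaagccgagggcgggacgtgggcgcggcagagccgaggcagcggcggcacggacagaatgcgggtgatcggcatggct

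The heat shock element, searched on both strands as GAANNTTCNNGAA, was found in 0.603% of all windows and in those of Hspd1, Hspe1 and Hsph1 among the members. Hspd1 and Hspe1 lie head to head on chromosome 1, and the nearest pair of their windows (chr1:55087883-55088182 and chr1:55087898-55088197) share 285 bases. The shared stretch holds 2 overlapping matches, at chr1:55088059-55088071 and chr1:55088064-55088076. The window of Hspe1 on the + strand is shown with their fixed letters in capitals, read on that strand.
Hspe1: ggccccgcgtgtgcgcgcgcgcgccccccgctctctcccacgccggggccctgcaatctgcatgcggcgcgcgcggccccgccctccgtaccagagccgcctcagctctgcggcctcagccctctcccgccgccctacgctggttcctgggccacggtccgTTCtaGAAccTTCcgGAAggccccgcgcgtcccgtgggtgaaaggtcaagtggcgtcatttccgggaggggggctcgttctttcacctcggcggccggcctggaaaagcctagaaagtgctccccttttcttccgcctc

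The XBP1-bound element TGACGTGG (in 0.676% of all windows) and the ATF4-bound element TGATGNAAT (0.965%) had no match in the members' windows, which says only that these letters are not there.

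Before the results, the arrays need a description, since markers of other cell types differed between them. The 11 measured B cell markers all had differences below 0, with a summed intensity of 1316 to 1434 in treated samples, and of 16370 and 15730 in untreated replicates 1 and 2 but 2246 in untreated replicate 3. The 10 plasma cell markers, also all below 0, summed to 7723 to 11680 in treated samples and to 31920, 42900 and 12770 in untreated replicates 1, 2 and 3. The 18 myeloid markers summed to 33500 to 87190 in treated samples and to 67760, 48720 and 4445 in the untreated ones. The 11 erythroid and platelet markers summed to 3685 to 6613 in treated samples and to 6571, 8008 and 1381 in the untreated ones. The 20 cell division genes summed to 34330, 18000 and 27440 in treated replicates 1, 2 and 3, and to 42680, 38750 and 30370 in untreated replicates 1, 2 and 3. The 10 T cell and Treg markers had list means of 11.45, 11.47 and 12.02 in treated samples and 11.25, 10.60 and 11.84 in untreated samples. They summed to 34710, 34910 and 48110 in treated replicates 1, 2 and 3, and to 28480, 19780 and 45670 in untreated ones. Untreated replicate 2 was the lowest of its group in all 10. No marker was listed at 0. Untreated replicate 3 thus stood apart in its B cell, plasma cell and myeloid signal. The part of these cells in the results was not tested. From bulk values alone, fewer cells of a type and less RNA per cell cannot be told apart. The groups compared in the B cell and plasma cell lists also differed in RAG1 genotype, RAG1o/o in treated and RAG1+/o in untreated mice.

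The array file numbers in the labels fall into 2 ranges, with replicates 1 and 2 of both groups in the lower and both replicates 3 in the higher one. The 3′ to 5′ log2 difference of the control gene Actb was 1.42, 1.94 and 3.62 in treated and 1.31, 1.95 and 0.92 in untreated replicates 1, 2 and 3. That of Gapdh was 3.38, 3.65 and 4.10 in treated and 3.23, 3.87 and 2.02 in untreated replicates. For both control genes treated replicate 3 was the highest of all arrays and untreated replicate 3 the lowest. These are the samples of the higher range.

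Most of the 35 genes had lower means in treated than in untreated Tregs, by small amounts and with none past the test. The difference was below 0 in 28 of the 35 genes and above 0 in 7, and its median was -0.26. Over all genes 41.5% had a difference below 0 and the median was 0.05. All genes include many dim probe sets. Without those of a mean under 7, 26 of 33 members were below 0 and the median of all genes was 0.007. At a limma adjusted p of 0.05 over all 18193 genes, 0 members passed, and the share over all genes was 0.0%. The smallest adjusted p among the members was 0.914. At an unadjusted p under 0.05, 3 members were lower in treated Tregs (Pdia6, Xbp1 and Dnajc3), where 3.17% of all genes were lower, and 0 were higher, where 1.82% were. These calls depended on the processing: of 16 alternatives Pdia6 was called in 9, Dnajc3 in 7 and Xbp1 in 4. With the replicate number as a block, Xbp1 and Dnajc3 were not called and Pdia3 and Hspd1 were. The groups did not overlap in 2 members that were lower, Canx and Xbp1, beside 5.24% of all genes, and in 1 that was higher, Ddit3, beside 5.61%. With so few members, shares of this size are near the background. In all 35 genes the widest range within a group exceeded the difference between the groups, as it did in 17491 of all genes.

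**Figure D1:**
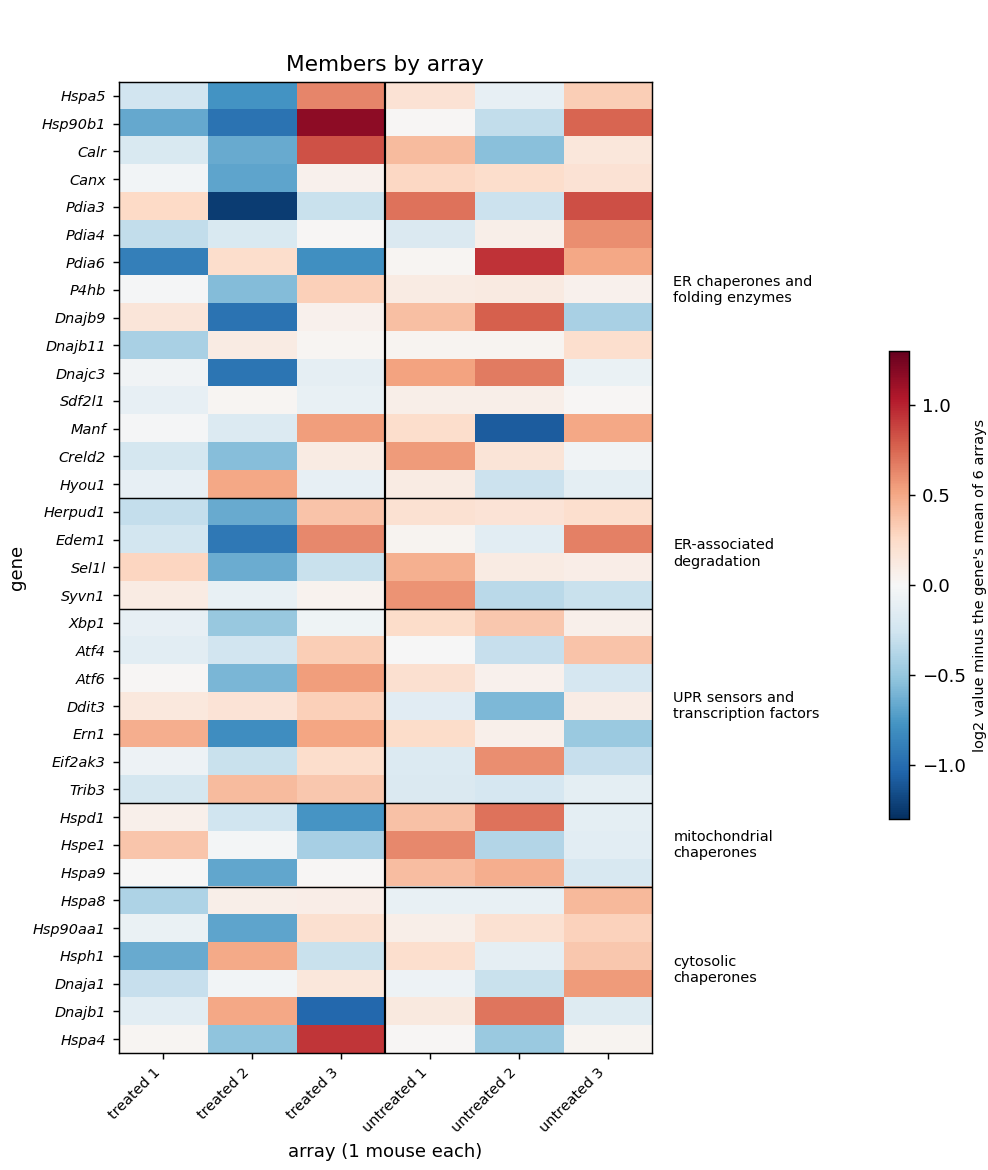
Each cell is the log2 value of a measured gene (row) on an array (column) minus that gene's mean over the 6 arrays, with treated arrays left of the line and roles separated by horizontal lines. In 19 of the 26 ER genes the lowest treated value was that of treated replicate 2.

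**Figure D2:**
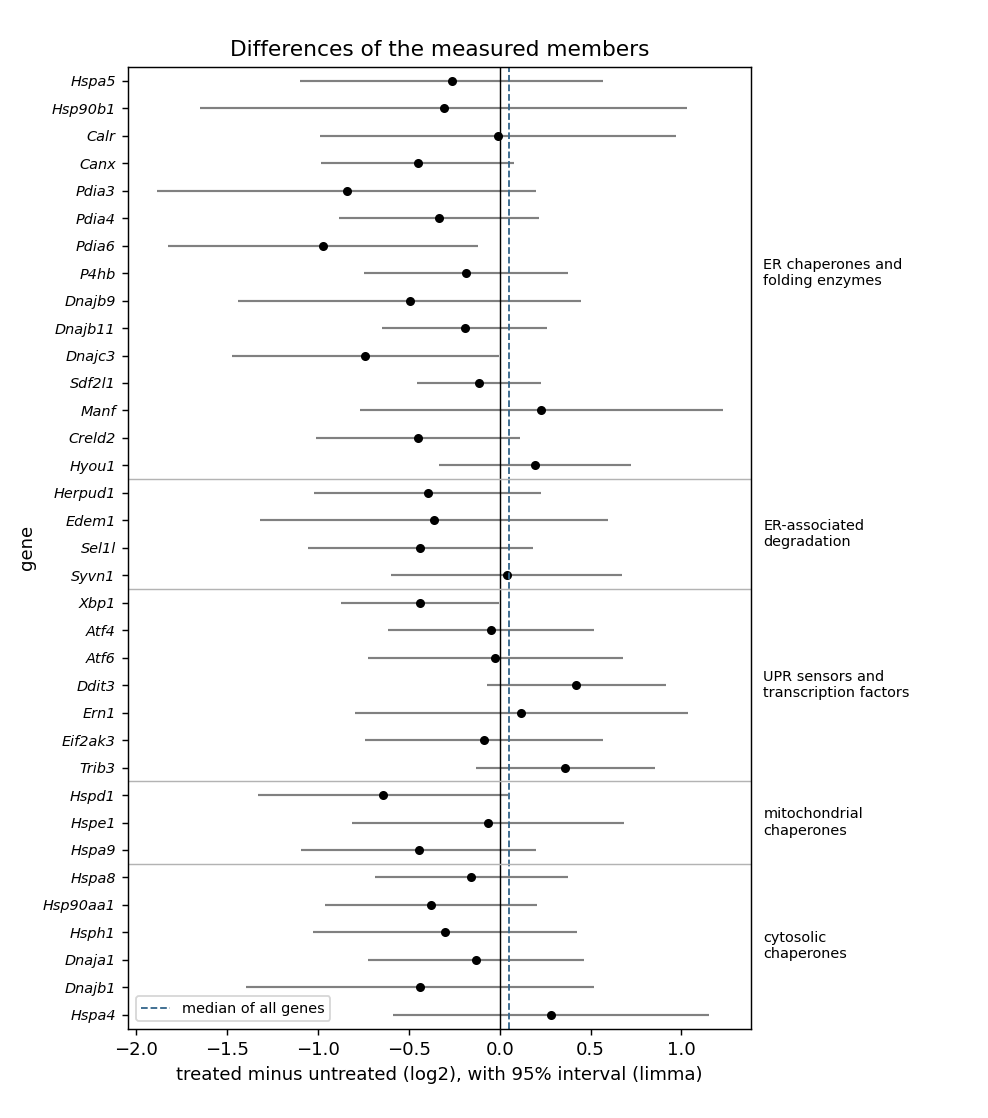
Points are treated minus untreated differences (log2) of the 35 measured genes and bars their 95% intervals from limma, with the median of all genes dashed. The interval lies below 0 for Pdia6, Dnajc3 and Xbp1 and includes 0 for all others.

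Among the ER chaperones, Hspa5, encoding BiP, measured 11.64, 11.12 and 12.53 in treated replicates 1, 2 and 3, against 12.08, 11.79 and 12.22 in untreated ones. Replicate 3 was highest in both groups, and the treated values spread over a range that contained all untreated values. The difference was -0.26 (95% interval -1.10 to 0.57, limma adjusted p = 0.930). Hsp90b1, encoding the ER Hsp90 protein GRP94, measured 9.64, 9.34 and 11.46 in treated samples, against 10.32, 9.98 and 11.06 in untreated samples. Its order of arrays was that of Hspa5. The difference was -0.31 with an interval of -1.65 to 1.03, the widest of the set. Calr, encoding calreticulin, averaged 11.90 ± 0.76 in treated and 11.91 ± 0.49 in untreated Tregs.

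Calnexin, the membrane-bound partner of calreticulin, differed in its spread. Canx measured 12.97, 12.32 and 13.06 in treated samples, against 13.28, 13.23 and 13.19 in untreated samples. All treated values lay below all untreated ones, which sat within 0.0861 of each other. The difference was -0.45 (interval -0.98 to 0.08, limma adjusted p = 0.914), or 1.37-fold lower.

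The protein disulfide isomerases form and reshuffle disulfide bonds in the ER, and Pdia6 and Pdia3 had the lowest differences of the 35 genes. Pdia6 measured 10.42, 11.55 and 10.52 in treated samples, against 11.34, 12.26 and 11.81 in untreated samples. The groups overlapped through treated replicate 2, which lay above untreated replicate 1. The difference of Pdia6 was -0.97 (interval -1.83 to -0.12, limma adjusted p = 0.914), or 1.97-fold lower. Its highest treated value was that of replicate 2, the array that was lowest among treated samples in most ER members. Pdia3, the isomerase that works with calnexin and calreticulin, measured 8.99, 7.49 and 8.44 in treated samples, against 9.43, 8.45 and 9.57 in untreated samples. Replicate 2 was lowest in both groups, and the difference was -0.84 (interval -1.89 to 0.20). Pdia4 differed by -0.33 and P4hb, the best known isomerase of the family, by -0.18.

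The ER co-chaperones of the J-domain family deliver substrates to BiP. Dnajc3 measured 9.20, 8.30 and 9.13 in treated samples, against 9.77, 9.92 and 9.16 in untreated samples. Untreated replicate 3 lay below treated replicate 1, so the groups overlapped, and the untreated values stood in the order of their plasma cell sums. The part of those cells in the difference of -0.74 (interval -1.48 to -0.0058, limma adjusted p = 0.914) was not tested. Within the higher file numbers the difference of Dnajc3 was -0.03, and within the lower ones -1.10. Dnajb9 measured 10.26, 9.14 and 10.15 in treated samples, against 10.49, 10.87 and 9.67 in untreated samples, again with untreated replicate 3 lowest of its group. Its difference was -0.49, and Dnajb11 differed by -0.19.

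Of the remaining folding factors, Creld2 differed by -0.45 and Sdf2l1, a component of BiP complexes, by -0.12. Manf, a secreted factor that is induced by ER stress, differed by 0.23, and Hyou1, a large Hsp70-type protein that exchanges nucleotides on BiP, by 0.19. Both had overlapping groups. Of these 15 chaperones and folding enzymes 13 had a difference below 0, with a median of -0.31.

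Genes of ER-associated degradation send misfolded proteins to the proteasome. Herpud1 measured 8.31, 7.97 and 8.99 in treated samples, against 8.82, 8.80 and 8.84 in untreated samples. Its untreated values lay close together and inside the treated range, and the difference was -0.40 (interval -1.02 to 0.23). Edem1, which helps extract glycoproteins from folding, differed by -0.36 and Sel1l, the adaptor of the HRD1 ubiquitin ligase, by -0.44. Syvn1, encoding HRD1 itself, differed by 0.04, and its untreated values of 9.44, 8.51 and 8.57 were split by replicate 1. All 4 genes had their lowest treated value in replicate 2.

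Of the UPR sensors and factors, Xbp1 alone was lower in every treated sample than in every untreated one. Xbp1 measured 11.39, 11.01 and 11.45 in treated samples, against 11.74, 11.85 and 11.57 in untreated samples. The difference was -0.44 (interval -0.88 to -0.0034, limma adjusted p = 0.914), or 1.36-fold lower. Untreated replicate 3 was the lowest of its group, as it was in B cell and plasma cell sums, and lay above all treated samples. Within the lower file numbers the difference was -0.60, and within the higher ones, where the B cell sums were 1434 in the treated and 2246 in the untreated sample, it was -0.12. The part of B cells and plasma cells in the Xbp1 values was not tested. All 4 probe sets of Xbp1 had differences below 0, from -0.60 to -0.22.

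Atf4, the factor of the integrated stress response, measured 9.98, 9.87 and 10.43 in treated samples, against 10.12, 9.81 and 10.49 in untreated samples. The groups overlapped throughout, and the difference was -0.05 (interval -0.61 to 0.52). Ddit3 and Trib3, stress-induced genes downstream of ATF4, had differences above 0, as had 10645 of all 18193 genes. Of the 25 further genes of the integrated stress response described below, 14 were above 0 and 11 below. Ddit3, encoding the pro-apoptotic factor CHOP, measured 8.10, 8.14 and 8.27 in treated samples, against 7.81, 7.37 and 8.06 in untreated samples. All treated values of Ddit3 lay above all untreated ones, the closest being untreated replicate 3. The difference was 0.42 (interval -0.07 to 0.91, limma adjusted p = 0.914), or 1.34-fold higher. The other probe set of Ddit3, with a mean of 7.07, differed by only 0.01, and the mean of the probe sets by 0.22. Trib3, a pseudokinase gene, averaged 8.58 ± 0.36 in treated and 8.22 ± 0.05 in untreated Tregs, a difference of 0.36 (interval -0.13 to 0.85). The sensors had small differences, with Ern1, encoding IRE1, at 0.12, Eif2ak3, encoding PERK, at -0.09 and Atf6 at -0.03. Over the 7 sensors and factors the median difference was -0.03.

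**Figure D3:**
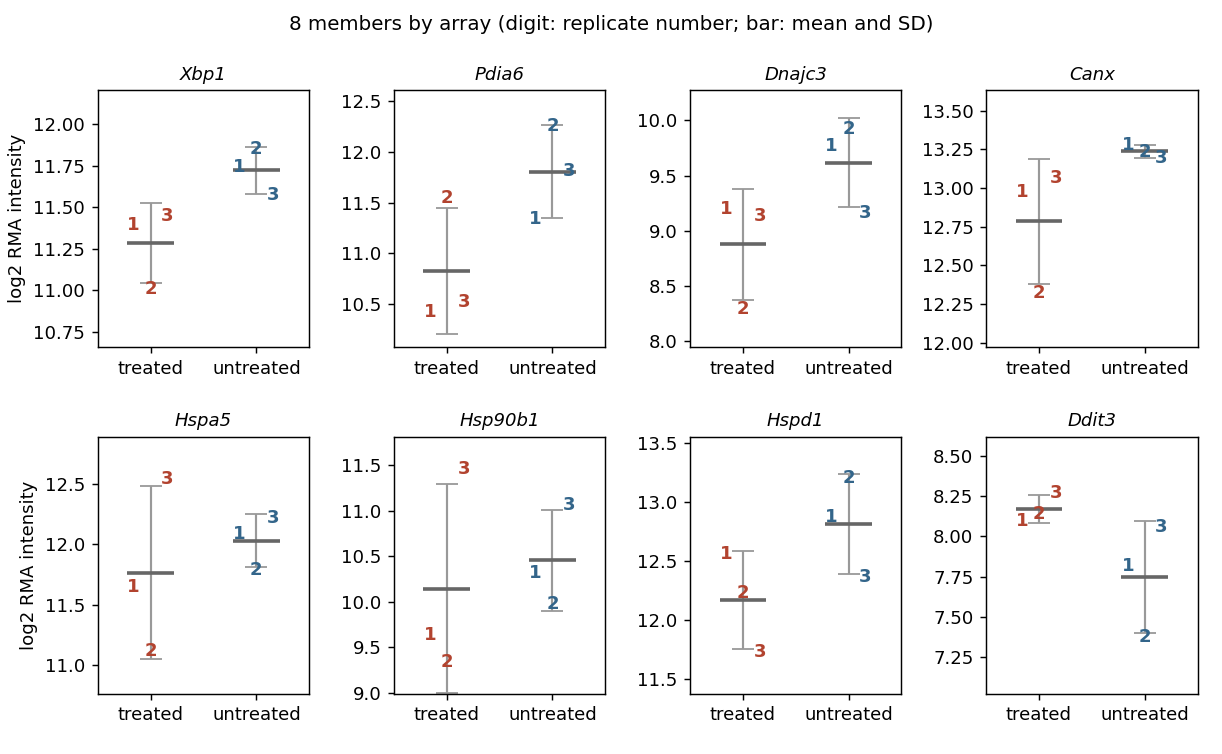
Digits are the replicate numbers placed at the log2 intensity of each array for 8 members, treated left of untreated, with the group mean and SD as bars and a separate scale in each panel. Xbp1 and Canx are lower and Ddit3 higher in all treated samples, while Hspa5 and Hsp90b1 are highest on replicate 3 of both groups.

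The mitochondrial chaperonin genes, which share the promoter stretch shown above, differed in their order of arrays. Hspd1, encoding HSP60, measured 12.56, 12.23 and 11.73 in treated samples, against 12.87, 13.20 and 12.37 in untreated samples. The groups overlapped only between treated replicate 1 and untreated replicate 3, and the difference was -0.64 (interval -1.33 to 0.05, limma adjusted p = 0.914). It was -0.64 within the lower and -0.64 within the higher file numbers. Hspe1, encoding its partner HSP10, measured 9.996, 9.60 and 9.20 in treated samples, against 10.25, 9.25 and 9.49 in untreated samples. Its treated values stood in the order of those of Hspd1, but its untreated values did not, and the difference was -0.06 (interval -0.81 to 0.68). Hspa9, the mitochondrial Hsp70, averaged 9.77 ± 0.39 in treated and 10.22 ± 0.38 in untreated Tregs, a difference of -0.45.

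Among the cytosolic chaperones, the constitutive Hsp70 gene Hspa8 measured 13.14, 13.61 and 13.63 in treated samples, against 13.45, 13.45 and 13.97 in untreated samples. Its difference was -0.16 (interval -0.69 to 0.37). Hspa8, like Trib3, was read by a probe set whose name ends in x_at, the mark for probes that may also match other transcripts. Hsp90aa1 differed by -0.38 (interval -0.96 to 0.21) and the nucleotide exchange factor gene Hsph1 by -0.30. Of the J-domain genes, Dnajb1 differed by -0.44 and Dnaja1 by -0.13. Hspa4, another exchange factor gene of the Hsp110 family, differed by 0.28 and was the only one of the 9 cytosolic and mitochondrial genes above 0. The median of these 9 was -0.30. Their list mean was 11.44, 11.44 and 11.45 in treated samples and 11.76, 11.65 and 11.68 in untreated samples. These means lay closer together within a group than those of single genes, in which arrays took different orders. Hspd1 was lowest and Hspa4 highest on treated replicate 3, for example.

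The ER genes shared an order of arrays that did not follow the groups. Over the 26 genes 20 had a difference below 0, with a median of -0.23. Their list mean was 9.53, 9.22 and 9.85 in treated replicates 1, 2 and 3, against 9.83, 9.65 and 9.78 in untreated ones. Treated replicate 2 held the lowest treated value in 19 of the 26 ER genes, or 73.1%, against 35.3% of all genes. Treated replicate 3 held the highest in 16, or 61.5%, against 33.8% of all genes. All genes include many dim ones, with list means of 7.39, 7.38 and 7.45 in treated samples, so their shares are not those of equally bright genes. The order of arrays was not particular to the ER genes. In the 150 further pathway genes described below the shares were 56.0% and 50.7%, and in the cytosolic and mitochondrial members 33.3% and 55.6%. In the cell division genes treated replicate 3 was highest in 20.0%, but treated replicate 2 was lowest in 75.0%. The same replicate 2 had the lowest array weight in limma, 0.242, and the lowest sum of cell division genes. Without treated replicate 2 the ER median was 0.0011, with 13 of 26 genes below 0, and the cytosolic and mitochondrial median was -0.22, against -0.23 and -0.30 over all samples. The part of array quality or of dividing cells in these values was not tested.

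Within the lower file numbers, with 2 samples per group, 22 of the 26 ER genes had a difference below 0 and the median was -0.41. Within the higher file numbers, with 1 sample per group, 11 of 26 were below 0 and the median was 0.09. Over all genes 42.8% lay below 0 in the lower range and 49.5% in the higher one. The signs of the 2 ranges were opposite in 11 ER genes, or 42.3%, among them Hspa5 (-0.56 and 0.32), Hsp90b1 (-0.66 and 0.40) and Dnajb9 (-0.98 and 0.48), against 51.4% of all genes. The samples of the higher range also lay at the ends of the Actb and Gapdh control differences given above. These were 3.62 and 4.10 in the treated and 0.92 and 2.02 in the untreated sample. The part of that contrast in the values of the higher range was not tested. In the cytosolic and mitochondrial genes 7 of 9 were below 0 in each range, with medians of -0.13 and -0.34. Of the 8 genes with the ER stress response element, 7 had a difference below 0, with a median of -0.38. Of the 15 other ER genes with a promoter window, 12 did, with a median of -0.19. Whether the element goes with the size of the difference was not tested.

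**Figure D4:**
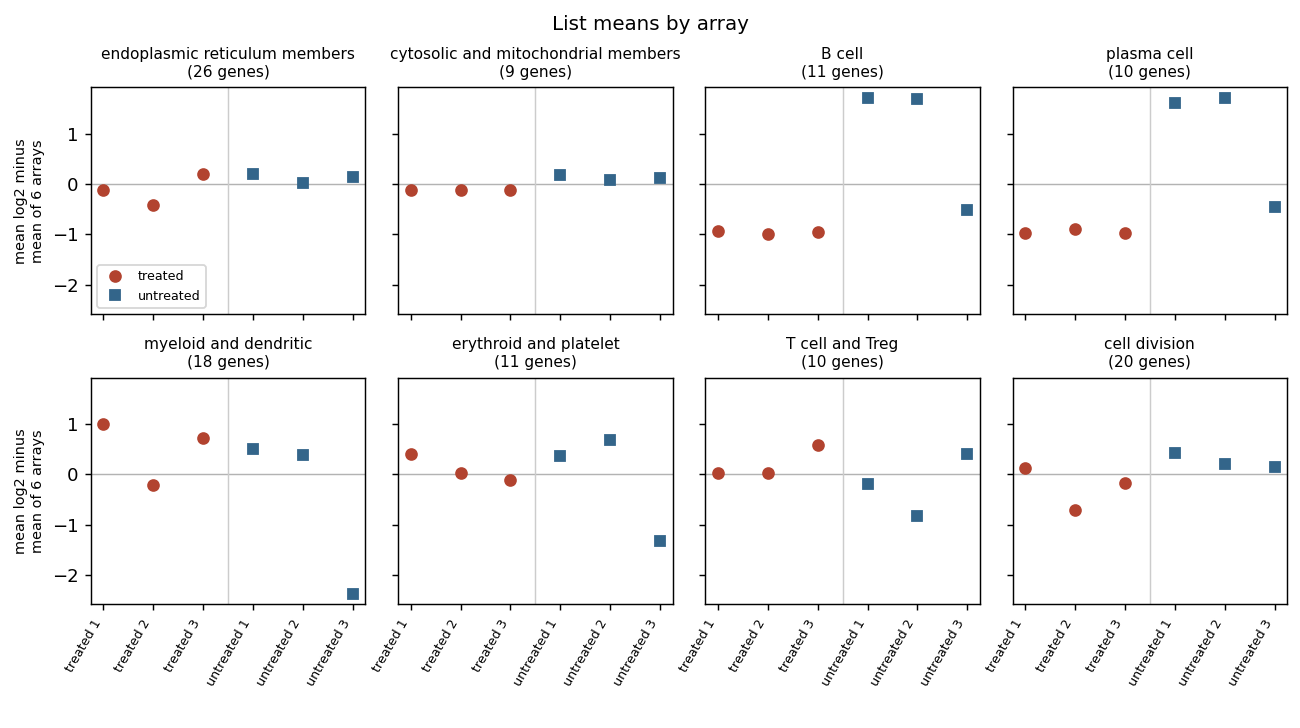
Each panel plots the mean log2 value of a gene list on each array, minus its mean over the 6 arrays, with treated arrays as circles left of untreated arrays as squares. The ER genes move by less than 1 between arrays. The B cell, plasma cell, myeloid, and erythroid and platelet lists separate untreated replicate 3 from untreated replicates 1 and 2.

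Most member genes were read by more than 1 probe set, and the others serve as a second reading of the same RNA, not as replicates. The 35 genes had 92 probe sets, of which 63 had a difference below 0 and 9 were lower at an unadjusted limma p under 0.05, with 0 higher. Over all 34945 probe sets with 1 symbol, 43.0% were below 0, 3.32% were lower and 1.57% were higher. Probe sets of a gene read the same RNA, so the 92 are not independent. Of 28 genes with several probe sets, 18 gave a single sign and 10 gave both. Among the probe sets that were not the brightest of their gene, 26 of the 36 with a mean of at least 7 and 9 of the 21 dimmer ones were below 0. Dnaja1 depended on the choice, with -0.13 from the brightest probe set and -0.77 and -0.80 from the others. Canx differed by -0.999 in a dimmer probe set, and Hsp90b1 by -0.72. Those of Hspa5 gave -0.54 and 0.10, and those of Atf4 gave 0.22 and 0.38.

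**Figure D5:**
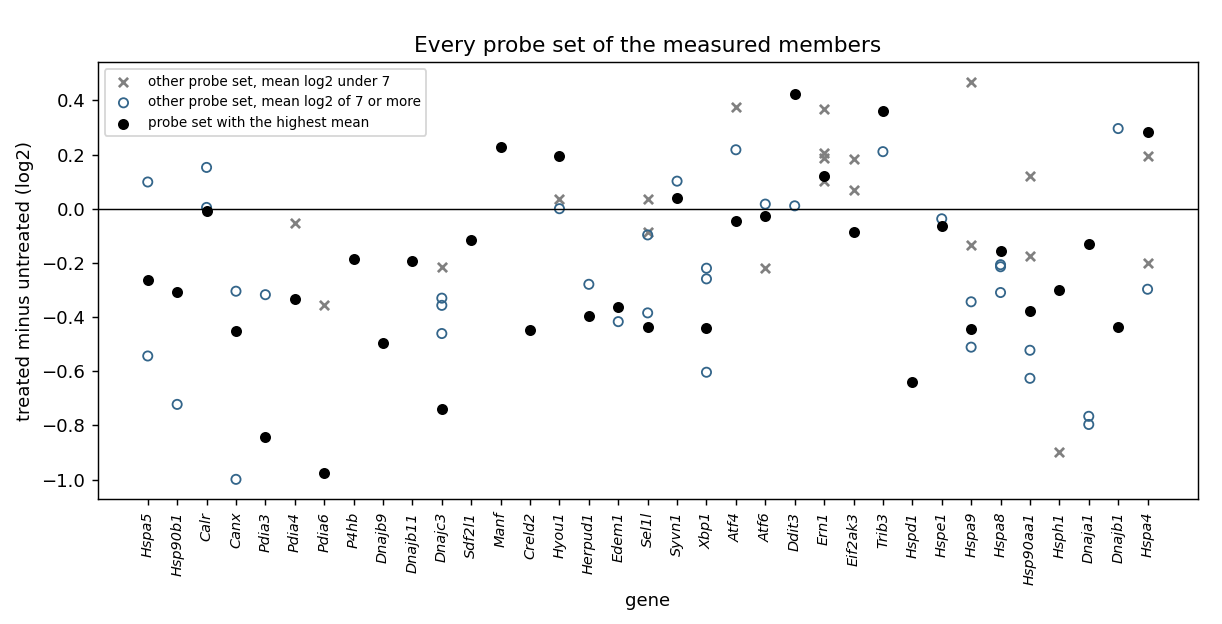
Each point is the treated minus untreated difference (log2) of a probe set of a measured gene, filled for the probe set with the highest mean, open for others with a mean of at least 7 and crossed for dimmer ones. All probe sets of Xbp1, Dnajc3 and Canx lie below 0, while those of Atf4, Calr and Hspa5 lie on both sides.

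Other genes of the same pathways were followed as 7 lists holding 158 further genes, of which 150 were measured. At a limma adjusted p of 0.05, 0 passed, and at an unadjusted p under 0.05, 12 were lower and 1 was higher in treated Tregs, beside 3.17% and 1.82% of all genes. The median difference was -0.08, with 89 of 150, or 59.3%, below 0, beside 41.5% of all genes. Translocation into the ER held 5 of the 12, and its 27 genes had a median of -0.18. Spcs2, a signal peptidase subunit gene, measured 11.32, 11.20 and 11.64 in treated samples, against 11.93, 12.62 and 12.24 in untreated samples. Its difference was -0.88 (interval -1.41 to -0.35). Spcs3, another subunit gene of that enzyme, differed by -0.55 and Sec62, a translocon component gene, by -0.60. Untreated replicate 3 lay above all treated samples in each of these genes.

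Oxidative folding and glycan processing held 20 genes with a median of -0.08 and 0 lower or higher. The disulfide oxidase gene Ero1b measured 10.08, 9.72 and 9.78 in treated samples, against 11.00, 10.80 and 9.74 in untreated samples, so that untreated replicate 3 fell within the treated range. Ero1a differed by -0.32 and Calu, a calcium-binding ER protein gene, by -0.52. Of 14 further degradation genes 1 was lower, the ubiquitin-conjugating enzyme gene Ube2j1 (-0.72), while Edem3 differed by -0.74 and Os9 by 0.53. The 25 targets and kinases of the integrated stress response had a median of 0.05. Mthfd2, a mitochondrial folate enzyme gene, was lower at 10.33 ± 0.11 in treated against 10.82 ± 0.11 in untreated Tregs, and Nupr1, a stress-induced nuclear protein gene, was higher at 7.43 ± 0.42 against 6.73 ± 0.05. Both had a limma adjusted p of 0.914, and the kinase gene Eif2ak4 differed by -0.32.

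Of 39 other heat shock proteins and co-chaperones, 3 were lower, with a list median of -0.14. St13, whose protein steadies the bond of Hsp70 to its substrate, measured 10.08, 10.07 and 10.14 in treated samples, against 10.69, 10.94 and 10.65 in untreated samples. Its difference of -0.66 (interval -1.03 to -0.29) exceeded the range within either group. The J-domain genes Dnaja4 and Dnajb4 differed by -0.70 and -1.14. In the cytosolic chaperonin, whose 14 genes with prefoldin had a median of -0.13, Cct8 measured 10.90, 9.93 and 10.48 in treated samples, against 11.39, 11.41 and 11.38 in untreated samples. Its untreated values lay closer together than its treated ones. The other subunit genes named by rule, Tcp1 and Cct2, differed by -0.32 and -0.22. Of 11 mitochondrial proteostasis genes the protease gene Yme1l1 was lower, at 8.15 ± 0.17 against 8.72 ± 0.13, while Clpx and Lonp1 differed by -0.87 and 0.26.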

How the data were processed

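RNA of sorted splenic Tregs was measured on 6 Affymetrix M430v2 arrays in 2 groups of 3. The authors deposited RMA intensity values on a linear scale, made in GenePattern per the series' design text, with a version not given in the sources used here. Per the labels' protocols the RNA was amplified in successive rounds, which can favour 3′ ends. The lowest deposited intensity was 5.47 and the highest 29584.9, with medians per array between 85.3 and 92.4, and the number of arrays limits the precision. The deposited values were taken as log2 without further normalization. Of 45101 probe sets, 64 controls were left out. Symbols came from the platform annotation, updated by gene ID for 34741 of 34945 probe sets with 1 symbol. A further 932 had several symbols and 9160 had none.

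Treated minus untreated differences were fitted by limma (version 3.58.1, R version 4.3.3) over 45037 probe sets, with Benjamini-Hochberg adjustment over 18193 genes. The fit was tested on simulated data with variances drawn from the fitted prior. At a limma adjusted p under 0.05 it called 17.6% of 2-fold and 81.4% of 4-fold changes. The largest difference among the members was 1.97-fold (Pdia6), so most changes of their size would be missed at this threshold. The members, pathway lists and markers were chosen with earlier results of these data known. Every member could be named, with sample values for those at an unadjusted p under 0.05 and for a list of central genes. Further sample values, such as those of Canx, Pdia3, Dnajb9, Herpud1 and some pathway genes, were picked after their values were seen. Of each pathway list the 3 genes with the smallest p were named, and of the marker lists sums or means are given. Labels do not say that arrays of the same number share a litter or day. Alternatives covered a replicate block, file number range and age as covariates, dim probe sets, probe set means, quantile normalization, median centring, array weights, variance priors and each sample left out. No count model was used. Plots used matplotlib (3.10.9) under Python (3.11.15).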

Additional observations from a re-analysis of the deposited data

How the results depend on the processing

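The count of members past the adjusted threshold was 0 under every alternative run, with limma at an adjusted p of 0.1 included. Over all genes it was 0 as reported, 32 without untreated replicate 3, 18 with the lower array file numbers alone, 5 with array weights and 1 with median centring. The count lower at an unadjusted p under 0.05, 3 in the comparison as reported, was 1 with age as covariate, 1 after quantile normalization, 1 with trend and robust, 1 without dim probe sets, 5 with array weights, 5 with the mean of probe sets and 6 with the lower array file numbers alone, an alternative chosen after seeing the data. Leaving out each sample gave 1 to 8, with 8 without treated replicate 3 and 1 without untreated replicate 1 or 2. For members higher it gave 0 to 1, with 1 without treated replicate 1 or untreated replicate 3. The ER median, -0.23 as reported, was -0.12 with age as covariate and -0.14 after quantile normalization. It ranged from -0.41 to 0.0011 over the samples left out, which it reached without treated replicate 2. The cytosolic and mitochondrial median ranged from -0.31 to -0.20, and was -0.13 with the lower file numbers alone, -0.22 with the mean of probe sets and -0.22 after quantile normalization. Of the other pathway genes 5 to 13 were lower with a sample left out, the 5 without untreated replicate 2. The alternatives for these genes were added after seeing the data. Of the 3 members reported as lower, 0 were shared with age as covariate, where Hspd1 was called, and 0 without untreated replicate 2, where Pdia3 was. The causes were not tested.

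With the replicate block the count of members lower was 3, but only Pdia6 was shared with the 3 reported: Xbp1 and Dnajc3 were not called, while Pdia3 and Hspd1 were. That of pathway genes was 17. Same-numbered samples deviated together with r of 0.51, 0.01 and 0.10 for replicates 1, 2 and 3. The 0.51 was the highest of all pairs, while treated replicate 2 correlated best with untreated replicate 3 (0.23). Both replicates 3 also had the higher file numbers. Whether same-numbered samples share more than a number is not settled by these values. The block changed no call at the adjusted threshold.

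Over all alternatives 19 of the 35 members kept their direction. With age as covariate Hsp90b1 was 0.0539, Calr 0.098, Syvn1 -0.11, Atf4 0.044, Atf6 0.0641 and Eif2ak3 0.0388. With the mean of probe sets Calr was 0.0491, Atf4 0.18, Eif2ak3 0.0556 and Hspa4 -0.0051. After quantile normalization Calr was 0.0922, Atf4 0.0496 and Hspe1 0.0212. With array weights Hyou1 was -0.0418, Syvn1 -0.13 and Eif2ak3 0.0139. With the lower file numbers alone Syvn1 was -0.11, Ern1 -0.32, Hspe1 0.0502, Dnaja1 0.0080 and Hspa4 -0.0199. Leaving out each sample, Hspa5 ranged from -0.65 to 0.06, Hsp90b1 from -0.97 to 0.0942, Calr from -0.43 to 0.31, P4hb from -0.39 to 0.053, Manf from -0.25 to 0.54, Hyou1 from -0.0089 to 0.30, Edem1 from -0.77 to 0.011, Syvn1 from -0.13 to 0.34, Atf4 from -0.22 to 0.13 and Atf6 from -0.30 to 0.26. Ern1 ranged from -0.11 to 0.55, Eif2ak3 from -0.25 to 0.20, Hspe1 from -0.27 to 0.23, Hspa8 from -0.24 to 0.0166, Dnaja1 from -0.31 to 0.11 and Hspa4 from -0.11 to 0.62.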
